A study of Homo sapiens with 4 samples.

Results

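Glycolysis turns glucose into pyruvate and lactate, and the hypoxia response is the set of genes that the hypoxia-inducible factors (HIFs) switch on when oxygen is short. The 45 genes described here are the glycolytic enzymes from hexokinase to lactate dehydrogenase, carriers of glucose and lactate, and known HIF targets with other roles. The list was made by name, with earlier results of these data known. The arrays read transcripts through probe sets, each made of several short probes, and those whose entry in the platform's gene table held exactly 1 gene were kept. This gave 81 probe sets for 43 of the 45 genes, of 22277 probe sets and 11963 genes in all. CA9 and SLC16A3 were not analysed here.

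The RNA came from MDA-MB231, a human breast cancer cell line of mesenchymal-like character, carrying either PIAS1 shRNA2 or a control shRNA. PIAS1 attaches SUMO, a small protein tag, to other nuclear proteins, many of them transcription factors, and the shRNAs were delivered by lentivirus and expressed from the U6 promoter in stable, drug-selected lines. Each line was kept for 30 h either in SCM, a serum-free stem cell medium with EGF, basic FGF and insulin, or in DMEM plus 10% FBS. The base medium of SCM also differed from plain DMEM, and BSA and glutamine were added to it. Each of the 4 conditions (PIAS1 shRNA2 in SCM, PIAS1 shRNA2 in DMEM, control shRNA in SCM, control shRNA in DMEM) was measured on 1 array. No ratio below has a replicate check, so none has a p-value, and how far 2 cultures of the same condition would differ is not known. The sources used here do not give the oxygen level or the cell density of these cultures. In bulk RNA, a change per cell and a change in the share of cells that express a gene cannot be told apart.

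HIF is a pair of proteins, an alpha subunit such as HIF1A or EPAS1 and its partner ARNT. With oxygen present, EGLN enzymes hydroxylate the alpha subunit on proline, VHL then binds it, and it is degraded. Without oxygen the pair binds hypoxia response elements, short DNA sites with the core ACGTG or GCGTG, and turns on genes for glucose uptake, glycolysis, blood vessel growth, collagen maturation and acid handling. Many tumors run glycolysis at a high rate even in oxygen, which is known as the Warburg effect.

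Signals are linear array intensities. A background floor of 215 was set from probe sets of genes restricted to other tissues, and a signal under it was raised to it before a ratio was taken. A ratio with its dimmer side under the floor is written as "at least". Of the 43 measured members, 41 were above the floor on all 4 arrays, the exceptions being ANGPTL4 and STC2. A gene with several probe sets was read from its brightest one. The spread given in place of a replicate error is the SD of the log2 ratio between probe sets of the same member, pooled over 17 members and 50 probe sets. It was 0.29 for SCM over DMEM in PIAS1 shRNA2 cells, 0.35 for SCM over DMEM in control shRNA cells, 0.19 for PIAS1 shRNA2 over control shRNA in SCM and 0.20 in DMEM. This spread covers probe behaviour on the same arrays and says nothing of the spread between cultures.

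The PIAS1 signal was 37.0% of control in SCM and 37.0% of control in DMEM on its brightest probe set. Its other 2 probe sets gave 31.5% and 77.9% of control in SCM, and 23.8% and at most 31.4% in DMEM, the last with its PIAS1 shRNA2 signal under the floor. The share of probe sets above the floor ran from 62.0% to 65.5% over the arrays. All 9 measured markers of a mesenchymal breast cancer line were above the floor on every array, while of 9 luminal markers GATA3, ERBB3, KRT8, KRT18 and KRT19 were above it on all 4 arrays, ESR1 was above it on 3, and PGR, FOXA1 and CDH1 were under it on every array.

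The members stood higher in SCM than in DMEM, in PIAS1 shRNA2 cells and in control shRNA cells alike. In PIAS1 shRNA2 cells 27 of 43 members (62.8%) were at least 2-fold higher in SCM, against 8.1% of all 11963 genes, and 0 were at least 2-fold lower, against 7.82% of all genes. In control shRNA cells 27 of 43 were at least 2-fold higher in SCM, against 7.79%, and 0 were lower, against 8.02%. The 27 were the same genes in both lines. Over all genes, 5.49% were at least 2-fold higher in both lines and 5.64% were at least 2-fold lower in both. Of the 9345 genes above the floor on at least 1 array, 10.4% were at least 2-fold higher in SCM in PIAS1 shRNA2 cells and 9.97% in control shRNA cells. The median member was 2.49-fold higher in SCM in PIAS1 shRNA2 cells and 2.65-fold higher in control shRNA cells, with a median log2 ratio of 0 over all genes in each. The 2 comparisons share no array.

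With 1.5-fold as the limit, 27 members were higher in SCM in PIAS1 shRNA2 cells, against 16% of all genes, and 0 were lower, against 16%. In control shRNA cells 32 were higher, against 15.8%, and 0 were lower, against 16.2%. The 5 that the lower limit added in control shRNA cells were GPI, PFKP, ALDOA, SLC2A1 and PDK3. The plot of the signals shows each member on each array.

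**Figure D1:**
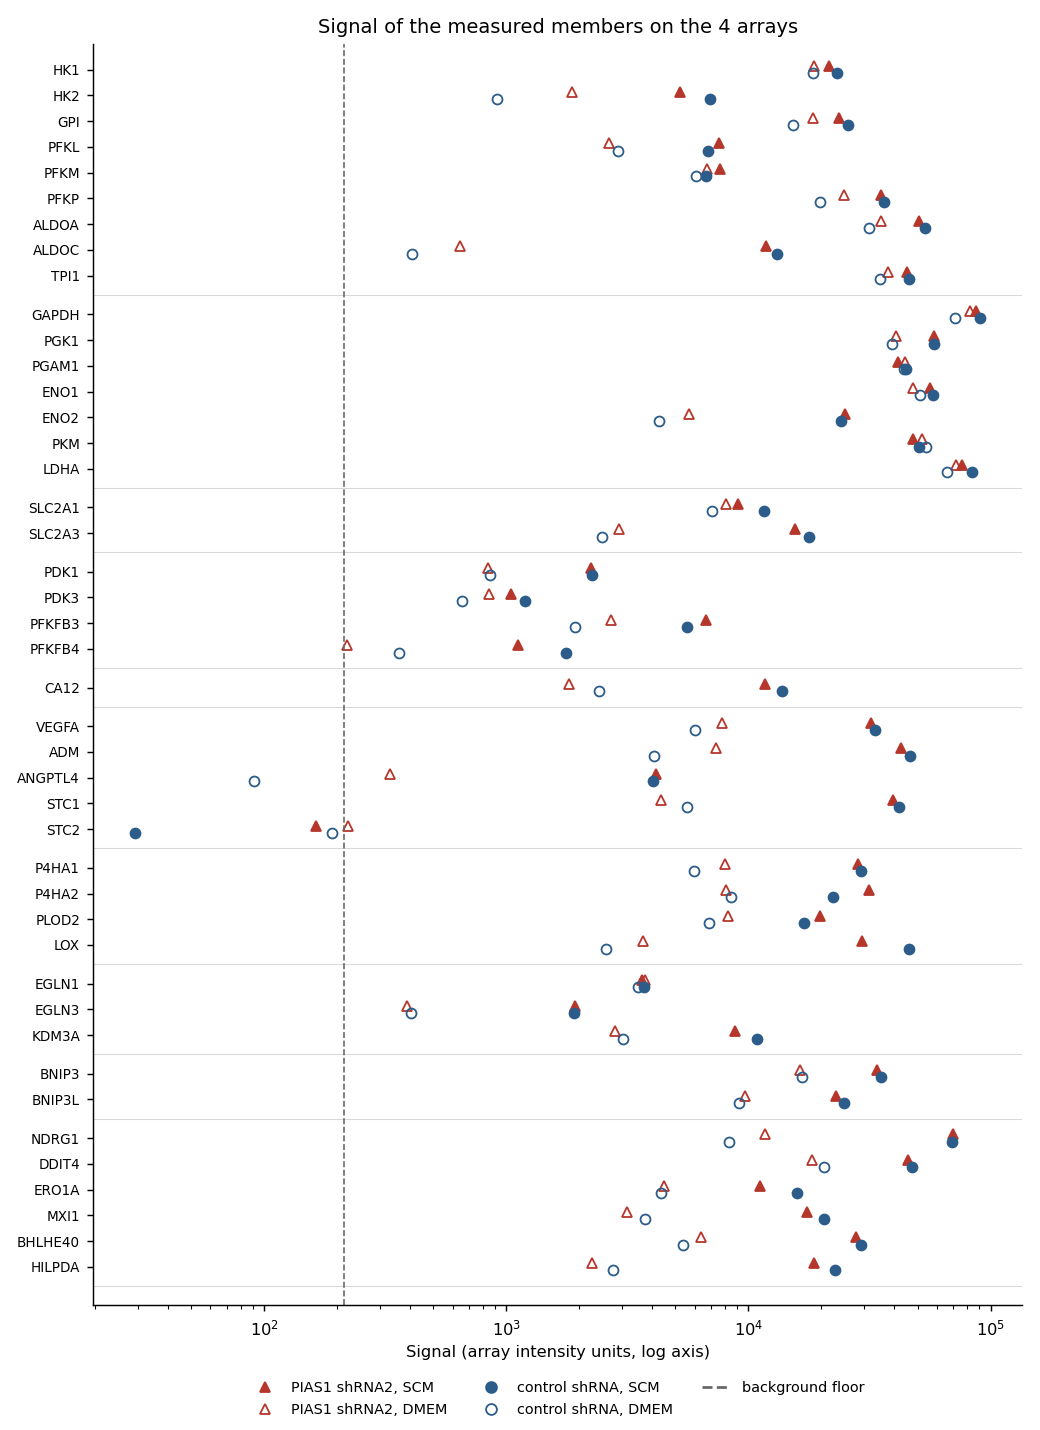
Signal of the 43 measured members on the 4 arrays, in array intensity units on a log axis, in blocks by role from the glycolytic enzymes at the top to growth, stress and lipid genes at the bottom. Red triangles are PIAS1 shRNA2 cells and blue circles control shRNA cells, filled in SCM and open in DMEM, and the dashed line is the floor of 215. For 27 members each filled symbol lies at least 2-fold right of the open symbol of the same line, while HK1, TPI1, PGAM1, ENO1, PKM and EGLN1 have their 4 symbols close together.

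The response was uneven along the list. The glycolytic enzymes had 4 of 16 at least 2-fold higher in SCM (HK2, PFKL, ALDOC and ENO2), with a median log2 ratio of 0.31 in PIAS1 shRNA2 cells and 0.49 in control shRNA cells. The other members, carriers, flux switches and HIF targets, had 23 of 27, with medians of 1.96 in PIAS1 shRNA2 cells and 2.24 in control shRNA cells. Beside both counts, 8.1% of all genes were at least 2-fold higher in SCM in PIAS1 shRNA2 cells and 7.79% in control shRNA cells. The 3 members with the highest SCM over DMEM ratio, averaged over the lines, were ALDOC, ANGPTL4 and LOX, which ranked 7, 12 and 17 among all 11963 genes with every signal under the floor raised to it. The ANGPTL4 rank rests on a control shRNA ratio that is a lower bound. Of the 100 genes with the highest average ratio, 12 were members, while members were 43 of the 11963 genes.

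The promoters of these 3 are shown with that of LDHA, an enzyme whose ratio stayed under 1.5-fold, to set windows that hold the HIF core ACGTG beside both kinds of ratio. LDHA was chosen after its matches were seen. Each window is the 250 bases before an annotated start. The sequences are RefSeq's on GRCh38.p14, written 5′ to 3′ on the gene's strand, with each ACGTG or its reverse complement CACGT in capitals. ALDOC has 1 window in the table, chr17:28576896-28577145 on the minus strand, and ANGPTL4 is shown at chr19:8363905-8364154 on the plus strand. LOX is shown for its most upstream start, chr5:122078260-122078509 on the minus strand, and LDHA for its most upstream start, chr11:18394313-18394562 on the plus strand.
ALDOC: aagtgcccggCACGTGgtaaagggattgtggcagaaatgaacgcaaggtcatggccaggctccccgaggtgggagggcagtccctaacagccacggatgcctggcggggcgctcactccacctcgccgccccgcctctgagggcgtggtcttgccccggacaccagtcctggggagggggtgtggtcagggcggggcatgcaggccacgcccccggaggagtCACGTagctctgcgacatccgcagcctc
ANGPTL4: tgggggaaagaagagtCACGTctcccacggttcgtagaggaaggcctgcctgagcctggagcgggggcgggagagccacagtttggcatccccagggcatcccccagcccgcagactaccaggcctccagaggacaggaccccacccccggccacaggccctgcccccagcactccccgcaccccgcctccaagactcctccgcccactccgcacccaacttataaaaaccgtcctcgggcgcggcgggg
LOX: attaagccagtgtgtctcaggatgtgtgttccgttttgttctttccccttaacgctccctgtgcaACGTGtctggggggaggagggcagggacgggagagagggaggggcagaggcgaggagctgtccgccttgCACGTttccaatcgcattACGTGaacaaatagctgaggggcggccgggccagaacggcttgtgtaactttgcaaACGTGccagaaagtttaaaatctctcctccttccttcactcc
LDHA: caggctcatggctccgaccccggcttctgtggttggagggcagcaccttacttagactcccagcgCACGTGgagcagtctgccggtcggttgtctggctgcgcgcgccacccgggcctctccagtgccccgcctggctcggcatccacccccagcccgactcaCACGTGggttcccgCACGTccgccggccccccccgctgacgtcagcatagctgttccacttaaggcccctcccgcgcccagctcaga
ALDOC and LDHA hold CACGTG, the palindrome bound by MYC and other E-box proteins, in which ACGTG reads on both strands. These letters are matches in a fixed window and not binding sites.

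Promoter windows of 39 of the 45 members were in the RefSeq table, 70 windows in all, some of them overlapping. SLC2A3, VEGFA, STC1, BNIP3L, NDRG1 and HILPDA had no entry. ACGTG on either strand was in 31 of the 70 (44.3%), against 18.5% of all 35116 windows and 20.7% of the windows of genes measured on the arrays. GCGTG on either strand was in 40% of the member windows, against 32.2% of all windows and 39.9% of those of genes measured. CACGTG, whose matches are all ACGTG matches too, was in 11.4%, against 6.34% and 7.74%. Counted by gene, 26 of 39 members (66.7%) had ACGTG in at least 1 window, against 27.1% of the measured genes. Known HIF targets were put on the list by name, so its share of the HIF core is not independent of that choice. The members had 70 windows over 39 genes and the measured genes 14058 windows over 9563 genes. ACGTG was held by 14 of the 21 members at least 2-fold higher in SCM that had a window, and by 10 of the other 16 measured members. KDM3A, EGLN3, ADM, CA12, P4HA2, PFKL and PFKFB4 were at least 2-fold higher in SCM with no ACGTG in these windows.

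In what follows, a fold in parentheses is the signal in SCM over that in DMEM. The enzymes that take glucose to triose phosphates split by isoenzyme. HK2, the inducible hexokinase that traps glucose in the cell, had signals of 5222 in SCM and 1876 in DMEM with PIAS1 shRNA2 (2.78-fold), and 6973 in SCM and 911 in DMEM with control shRNA (7.65-fold). HK1, the hexokinase of most tissues, was 1.15-fold higher in SCM with PIAS1 shRNA2 and 1.26-fold with control shRNA. ALDOC, the aldolase known from brain, had 11773 in SCM and 645 in DMEM with PIAS1 shRNA2 (18.2-fold), and 13142 in SCM and 409 in DMEM with control shRNA (32.2-fold). ALDOA, the muscle and general aldolase, had 50568 in SCM and 35389.7 in DMEM with PIAS1 shRNA2 (1.43-fold), and 53558 in SCM and 31379.8 in DMEM with control shRNA (1.71-fold). ALDOC thus had the highest ratio of the module in PIAS1 shRNA2 cells, and ALDOA stayed under 2-fold in both lines. In control shRNA cells ANGPTL4, known there as a lower bound, cannot be ordered against ALDOC.

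Phosphofructokinase, the committed step of glycolysis, has 3 genes here. PFKL, the liver type, had 7552 in SCM and 2659 in DMEM with PIAS1 shRNA2 (2.84-fold), and 6837 in SCM and 2889 in DMEM with control shRNA (2.37-fold). PFKP, the platelet type, had 35160.0 in SCM and 24818 in DMEM with PIAS1 shRNA2 (1.42-fold), and 36470.2 in SCM and 19795 in DMEM with control shRNA (1.84-fold). PFKM, the muscle type, was 1.13-fold with PIAS1 shRNA2 and 1.09-fold with control shRNA. Of the 3, PFKL alone passed 2-fold, and its other probe set gave 3.34-fold with PIAS1 shRNA2 and 2.04-fold with control shRNA. GPI, which turns glucose phosphate into fructose phosphate, had 23676 in SCM and 18545 in DMEM with PIAS1 shRNA2 (1.28-fold), and 25705 in SCM and 15275 in DMEM with control shRNA (1.68-fold). TPI1, which interconverts the triose phosphates, was 1.20-fold higher in SCM with PIAS1 shRNA2 and 1.32-fold with control shRNA.

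From triose to lactate, the same split was seen for enolase. ENO2, known as the neuronal enolase, had 24952 in SCM and 5665 in DMEM with PIAS1 shRNA2 (4.40-fold), and 24126 in SCM and 4292 in DMEM with control shRNA (5.62-fold). ENO1, the general enolase, was 1.17-fold higher in SCM with PIAS1 shRNA2 and 1.13-fold with control shRNA. GAPDH, which oxidises triose phosphate, had 87391 in SCM and 82438 in DMEM with PIAS1 shRNA2 (1.06-fold), and 90642 in SCM and 71299 in DMEM with control shRNA (1.27-fold). Its 6 probe sets lay between 0.939-fold and 1.09-fold with PIAS1 shRNA2 and between 1.13-fold and 1.27-fold with control shRNA, so GAPDH hardly differed by medium on any of them. LDHA, which makes lactate from pyruvate, had 76164 in SCM and 72329 in DMEM with PIAS1 shRNA2 (1.05-fold), and 83729 in SCM and 65821 in DMEM with control shRNA (1.27-fold). PGAM1 and PKM, phosphoglycerate mutase and pyruvate kinase, were 0.938-fold and 0.921-fold in PIAS1 shRNA2 cells, and 1.02-fold and 0.933-fold in control shRNA cells. ENO2 apart, the measured enzymes from triose to lactate differed between the media by less than 1.5-fold on their brightest probe sets.

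PGK1, the first enzyme of glycolysis to yield ATP, depended on the probe set. On its brightest probe set it had 58247 in SCM and 40555 in DMEM with PIAS1 shRNA2 (1.44-fold), and 58205 in SCM and 39046 in DMEM with control shRNA (1.49-fold). On the third of its 4 probe sets by brightness it was 2.35-fold with PIAS1 shRNA2 and 2.70-fold with control shRNA. PGK1 was therefore counted as under 2-fold here, and would pass on that probe set. Among the 17 members with at least 2 probe sets above the floor, the brightest one had the lowest SCM over DMEM ratio in 11, and the part of this in the smaller ratios of bright enzymes was not tested.

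Of the carriers, SLC2A3 and SLC2A1 (the glucose transporters GLUT3 and GLUT1) differed in the same way. SLC2A3 had 15638 in SCM and 2911 in DMEM with PIAS1 shRNA2 (5.37-fold), and 17829 in SCM and 2495 in DMEM with control shRNA (7.14-fold). Its 2 other probe sets gave 7.67-fold and 7.40-fold in PIAS1 shRNA2 cells, and 10.3-fold and 11.5-fold in control shRNA cells. SLC2A1 had 9028 in SCM and 8053 in DMEM with PIAS1 shRNA2 (1.12-fold), and 11553 in SCM and 7056 in DMEM with control shRNA (1.64-fold). SLC2A1, a textbook HIF target, thus stayed under 2-fold in both lines.

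The switches of glycolytic flux were higher in SCM in 3 of 4 cases. PDK1, a kinase that shuts pyruvate dehydrogenase and so keeps pyruvate out of mitochondria, had 2235 in SCM and 843 in DMEM with PIAS1 shRNA2 (2.65-fold), and 2267 in SCM and 859 in DMEM with control shRNA (2.64-fold). PDK3, a kinase of the same family, had 1048 in SCM and 847 in DMEM with PIAS1 shRNA2 (1.24-fold), and 1192 in SCM and 658 in DMEM with control shRNA (1.81-fold). Its dimmer probe sets lay between 0.736-fold and at least 3.28-fold, so PDK3 had no settled ratio on these arrays. PFKFB3 and PFKFB4 set the level of the sugar bisphosphate that activates phosphofructokinase. PFKFB3 had 6691 in SCM and 2705 in DMEM with PIAS1 shRNA2 (2.47-fold), and 5592 in SCM and 1925 in DMEM with control shRNA (2.90-fold). PFKFB4 had 1114 in SCM and 221 in DMEM with PIAS1 shRNA2 (5.05-fold), and 1768 in SCM and 361 in DMEM with control shRNA (4.89-fold). Its DMEM signal in PIAS1 shRNA2 cells lay just above the floor.

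CA12, a carbonic anhydrase of the cell surface that helps to buffer acid, had 11699 in SCM and 1817 in DMEM with PIAS1 shRNA2 (6.44-fold), and 13787 in SCM and 2417 in DMEM with control shRNA (5.70-fold). Its 4 other probe sets above the floor ran from 6.48-fold to 9.56-fold in PIAS1 shRNA2 cells and from 5.88-fold to 13.3-fold in control shRNA cells.

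The secreted factors held some of the highest ratios. VEGFA, the main growth factor for blood vessels, had 32006 in SCM and 7794 in DMEM with PIAS1 shRNA2 (4.11-fold), and 33293 in SCM and 6039 in DMEM with control shRNA (5.51-fold). Its 3 other probe sets gave 6.09-fold to 6.52-fold in PIAS1 shRNA2 cells and 10.7-fold to 12.3-fold in control shRNA cells. ADM, the vasodilator peptide adrenomedullin, had 42735 in SCM and 7367 in DMEM with PIAS1 shRNA2 (5.80-fold), and 46344 in SCM and 4070.2 in DMEM with control shRNA (11.4-fold). The 2 SCM signals of ADM were close and the 2 DMEM signals were further apart.

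ANGPTL4, an inhibitor of lipoprotein lipase, had 4134 in SCM and 332 in DMEM with PIAS1 shRNA2, and 4038 in SCM and 91.1 in DMEM with control shRNA. It was 12.5-fold higher in SCM in PIAS1 shRNA2 cells and at least 18.8-fold higher in control shRNA cells, where its DMEM signal was under the floor. STC1, the glycoprotein stanniocalcin, had 39676 in SCM and 4372 in DMEM with PIAS1 shRNA2 (9.08-fold), and 42033 in SCM and 5559 in DMEM with control shRNA (7.56-fold). Its 2 other probe sets gave 7.89-fold and 8.64-fold with PIAS1 shRNA2, and 6.91-fold and 7.52-fold with control shRNA. Its relative STC2 gave between 29.3 and 222 on the 4 arrays, above the floor on 1 of them, and carries no ratio.

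All 4 genes of collagen modification were at least 2-fold higher in SCM. P4HA1, an alpha subunit of the enzyme that hydroxylates proline in collagen, had 28351 in SCM and 7969 in DMEM with PIAS1 shRNA2 (3.56-fold), and 29279.8 in SCM and 5972 in DMEM with control shRNA (4.90-fold). P4HA2, its sister subunit, had 31516 in SCM and 8096 in DMEM with PIAS1 shRNA2 (3.89-fold), and 22384 in SCM and 8450.4 in DMEM with control shRNA (2.65-fold). The order of the lines was reversed between the 2 subunits. PLOD2, which hydroxylates lysine in collagen, had 19758 in SCM and 8272 in DMEM with PIAS1 shRNA2 (2.39-fold), and 16935 in SCM and 6889.9 in DMEM with control shRNA (2.46-fold). The other PLOD2 probe set gave 2.64-fold with PIAS1 shRNA2 and 2.55-fold with control shRNA. LOX, lysyl oxidase, which cross-links collagen, had 29454 in SCM and 3671 in DMEM with PIAS1 shRNA2 (8.02-fold), and 45874 in SCM and 2588 in DMEM with control shRNA (17.7-fold). Its other probe sets gave 6.996-fold and 8.995-fold in PIAS1 shRNA2 cells, and 9.92-fold and 18.4-fold in control shRNA cells.

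The oxygen sensors diverged. EGLN3, a prolyl hydroxylase of HIF that HIF itself induces, had 1922 in SCM and 391 in DMEM with PIAS1 shRNA2 (4.92-fold), and 1903 in SCM and 403 in DMEM with control shRNA (4.72-fold). EGLN1, the main HIF hydroxylase of most cells, had 3631 in SCM and 3755 in DMEM with PIAS1 shRNA2 (0.967-fold), and 3713 in SCM and 3513 in DMEM with control shRNA (1.06-fold). KDM3A, a histone demethylase that is itself an oxygen-dependent enzyme, had 8837 in SCM and 2821 in DMEM with PIAS1 shRNA2 (3.13-fold), and 10824 in SCM and 3029.7 in DMEM with control shRNA (3.57-fold). EGLN3 and KDM3A, but not EGLN1, thus passed 2-fold.

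BNIP3 and BNIP3L are receptors that mark mitochondria for removal by autophagy. BNIP3 had 33933 in SCM and 16321 in DMEM with PIAS1 shRNA2 (2.08-fold), and 35237 in SCM and 16684 in DMEM with control shRNA (2.11-fold). It was the member nearest to the limit of 2-fold on the upper side, and its other probe set gave 3.32-fold with PIAS1 shRNA2 and 3.20-fold with control shRNA. BNIP3L had 22942 in SCM and 9701 in DMEM with PIAS1 shRNA2 (2.36-fold), and 24876 in SCM and 9106 in DMEM with control shRNA (2.73-fold). On its other probe set it was 3.16-fold with PIAS1 shRNA2 and 3.19-fold with control shRNA, so both receptors were further from the limit on their dimmer probe sets.

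The 6 genes of growth, stress and lipid storage were all at least 2-fold higher in SCM. NDRG1, a stress-induced gene linked to cell differentiation, had 69953 in SCM and 11747 in DMEM with PIAS1 shRNA2 (5.96-fold), and 69073 in SCM and 8315 in DMEM with control shRNA (8.31-fold). HILPDA, which inhibits the breakdown of stored triglyceride, had 18657 in SCM and 2265 in DMEM with PIAS1 shRNA2 (8.24-fold), and 22817 in SCM and 2760.4 in DMEM with control shRNA (8.27-fold). HILPDA was among the members whose ratio was nearly equal in the 2 lines. MXI1, an antagonist of MYC, had 17535 in SCM and 3167 in DMEM with PIAS1 shRNA2 (5.54-fold), and 20616 in SCM and 3733 in DMEM with control shRNA (5.52-fold). BHLHE40, a transcriptional repressor that also serves the circadian clock, had 27818 in SCM and 6344 in DMEM with PIAS1 shRNA2 (4.38-fold), and 29248 in SCM and 5382 in DMEM with control shRNA (5.43-fold). Neither line stood out for MXI1, whereas the BHLHE40 ratio was the larger in control shRNA cells, also on its other probe set, with 4.24-fold with PIAS1 shRNA2 and 7.49-fold with control shRNA. DDIT4, which restrains mTOR signalling under stress, had 45630.4 in SCM and 18300.3 in DMEM with PIAS1 shRNA2 (2.49-fold), and 47560.3 in SCM and 20558 in DMEM with control shRNA (2.31-fold). ERO1A, an oxidase that helps to form disulfide bonds in secreted proteins, had 11138 in SCM and 4483 in DMEM with PIAS1 shRNA2 (2.48-fold), and 15839 in SCM and 4367 in DMEM with control shRNA (3.63-fold).

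**Figure D2:**
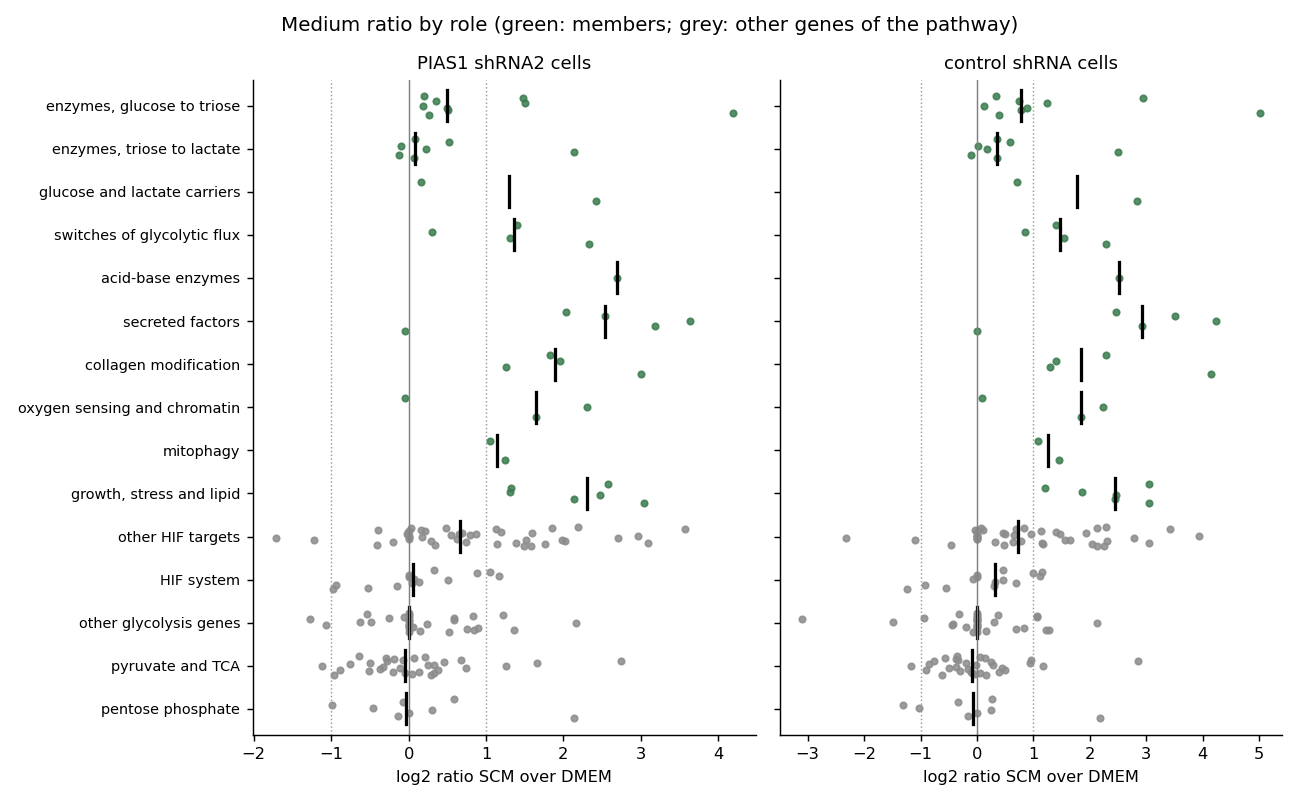
log2 ratio of SCM over DMEM by role, in PIAS1 shRNA2 cells on the left and control shRNA cells on the right. Each point is a gene (green for the members, grey for other genes of the pathway), black bars are medians, and dotted lines mark 2-fold. The enzymes from triose to lactate have medians of 0.08 with PIAS1 shRNA2 and 0.35 with control shRNA, and the 6 genes of growth, stress and lipid storage 2.30 with PIAS1 shRNA2 and 2.45 with control shRNA.

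Other things moved with the medium too. The 3′ to 5′ signal ratio of ACTB, a measure of RNA integrity, was 1.11 in SCM and 0.95 in DMEM in PIAS1 shRNA2 cells, and 1.07 in SCM and 0.98 in DMEM in control shRNA cells, while that of GAPDH ran from 0.83 to 0.88. Of 6 markers of leukocytes, endothelium and fibroblasts 5 were measured, with summed signals of 5288 in SCM and 1403 in DMEM in PIAS1 shRNA2 cells, and 4827 in SCM and 1848 in DMEM in control shRNA cells. PTPRC, the pan-leukocyte marker, was under the floor on every array, and PECAM1 and COL1A2 were at least 2-fold higher in SCM in both lines. Luminal markers summed to 38604 in SCM and 56961 in DMEM in PIAS1 shRNA2 cells, and to 48439 in SCM and 52341 in DMEM in control shRNA cells. The sum follows its brightest gene, KRT18, with log2 ratios of SCM over DMEM of -1.02 with PIAS1 shRNA2 and -0.79 with control shRNA. KRT8 and GATA3 were also lower in SCM in both lines, whereas KRT19, with 1.76 with PIAS1 shRNA2 and 2.16 with control shRNA, ERBB3 and ESR1 were higher in both. The part of these in the members' ratios was not tested.

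The members had a similar order of ratios in the 2 lines. Across the 43 members, the SCM over DMEM log2 ratio in PIAS1 shRNA2 cells and that in control shRNA cells had a Pearson r of 0.96 and a Spearman rho of 0.96, against 0.86 and 0.77 across all 11963 genes. Across the 9345 genes above the floor on at least 1 array, the Pearson r was 0.86 and the Spearman rho 0.81. Genes are not independent replicates, and this is a description of 4 arrays. The ratio was smaller in PIAS1 shRNA2 cells for 32 members and larger for 11. The 32 include STC2, whose difference of -0.05 was set by the floor. Over the 43 members the median difference was -0.19 in log2. How far this median would move between cultures is not known. Over all genes the numbers were 4709 smaller and 4636 larger, with a median difference of 0. Of the 27 members at least 2-fold higher in both lines, 18 had the smaller ratio in PIAS1 shRNA2 cells, against 315 of the 657 genes that passed 2-fold in both lines.

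**Figure D3:**
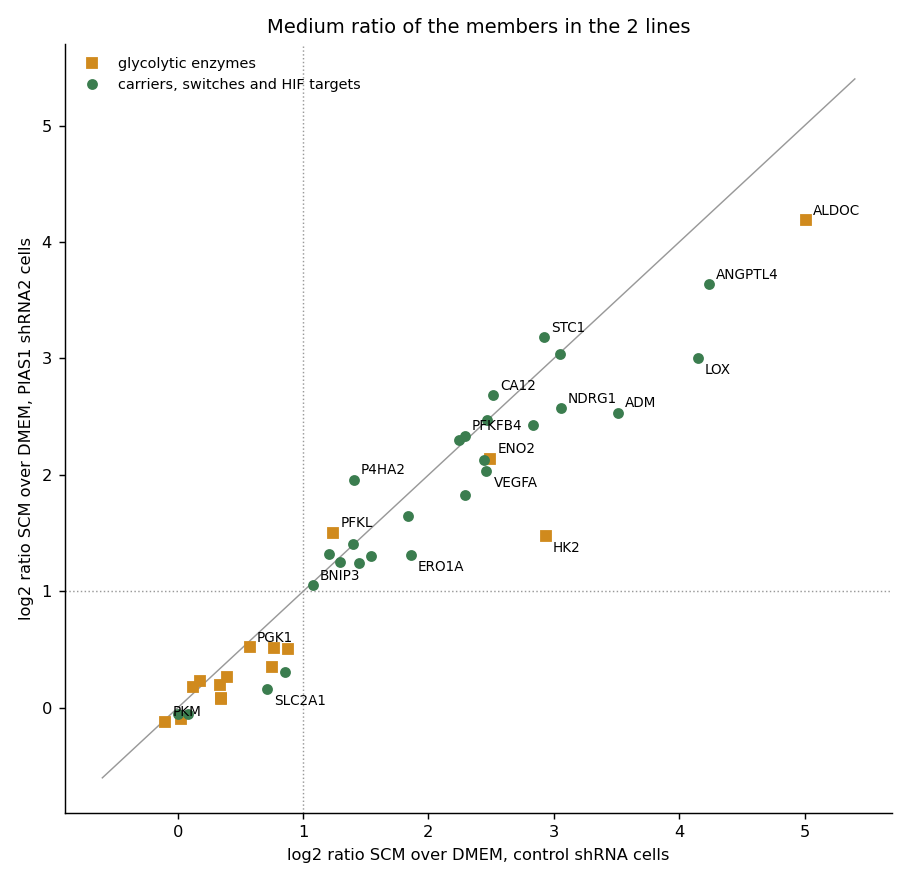
log2 ratio of SCM over DMEM of each member in PIAS1 shRNA2 cells (vertical axis) and in control shRNA cells (horizontal axis), with glycolytic enzymes as squares and the other members as circles, a solid line of equal ratios and dotted lines at 2-fold. The point of ANGPTL4 in control shRNA cells is a lower bound. Most members lie near the line of equal ratios, 32 of 43 below it, and HK2, LOX and ADM lie farthest below it.

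Read from the brightest probe sets, HK2 and LOX were the 2 members whose medium ratios differed by at least 2-fold between the lines. For HK2 the log2 ratio was 1.48 in PIAS1 shRNA2 cells and 2.94 in control shRNA cells, a difference of -1.46. For LOX it was 3.004 in PIAS1 shRNA2 cells and 4.15 in control shRNA cells, a difference of -1.14. The signals given above show where these came from: the HK2 signal was higher in PIAS1 shRNA2 cells in DMEM and lower in SCM, and the LOX signal likewise. ALDOC, ADM and ANGPTL4 also differed by at least 1.5-fold, with differences of -0.82, -0.97 and -0.59, the last of them set by the floor. On its brightest probe set, no member had a ratio at least 1.5-fold larger in PIAS1 shRNA2 cells. PFKL, PGK1 and PDK3 had such a ratio on a dimmer probe set. For LOX, the second-brightest probe set gave 2.81 with PIAS1 shRNA2 and 3.31 with control shRNA, less than 2-fold apart. Its dimmest gave 3.17 with PIAS1 shRNA2 and 4.20 with control shRNA. These differences between lines have no test.

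Within a medium, 1 member passed 2-fold between PIAS1 shRNA2 and control shRNA cells. In SCM, 0 of 43 members were at least 2-fold higher with PIAS1 shRNA2 than with control shRNA, against 1.5% of all genes, and 0 were at least 2-fold lower, against 0.953%. In DMEM, HK2 was the 1 member at least 2-fold higher, against 0.903% of all genes, and 0 were lower, against 0.493%. The median log2 ratio of the members was -0.07 in SCM and 0.11 in DMEM, and 0 over all genes. At these background shares the counts of members are too small to set apart from those of other genes.

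At 1.5-fold, 0 members were higher in SCM, against 5.17% of all genes, and 2 were lower, PFKFB4 and LOX, against 4.63%. In DMEM 4 were higher (HK2, ALDOC, ADM and ANGPTL4), against 4.1%, and 1 was lower, PFKFB4, against 2.94%. HK2 was 0.749-fold in SCM and 2.06-fold in DMEM. The DMEM value lay just past the limit, and it was under 2-fold with common-median scaling, with quantile normalization and with the mean of its probe sets, the second of which was under the floor on every array. LOX was 0.642-fold in SCM and 1.42-fold in DMEM, and its other probe sets gave 0.948-fold and 0.532-fold in SCM and 1.34-fold and 1.09-fold in DMEM. The lower LOX signal in SCM was therefore seen on 2 of its 3 probe sets by more than 1.5-fold.

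PFKFB4 was the 1 member that differed by over 1.5-fold the same way in both media, 0.630-fold in SCM and 0.611-fold in DMEM. It has 1 probe set, and its DMEM signals are close to the floor. ADM was 0.922-fold in SCM and 1.81-fold in DMEM, and ALDOC was 0.896-fold in SCM and 1.58-fold in DMEM. ANGPTL4 was 1.02-fold in SCM and at least 1.55-fold in DMEM. The 4 members higher in DMEM were thus all under 1.5-fold from control in SCM. ERO1A was 0.703-fold in SCM and 1.03-fold in DMEM, and P4HA2 was 1.41-fold in SCM and 0.958-fold in DMEM. On their brightest probe sets, the members not named in these comparisons differed from control by less than 1.5-fold in both media. Dimmer probe sets passed 1.5-fold in at least 1 medium for some members. VEGFA, SLC2A3 and TPI1 were higher there, and CA12, PFKL, PGK1 and PDK3 lower. On its dimmer probe set that was the lowest, PDK3 was at most 0.480-fold in DMEM.

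**Figure D4:**
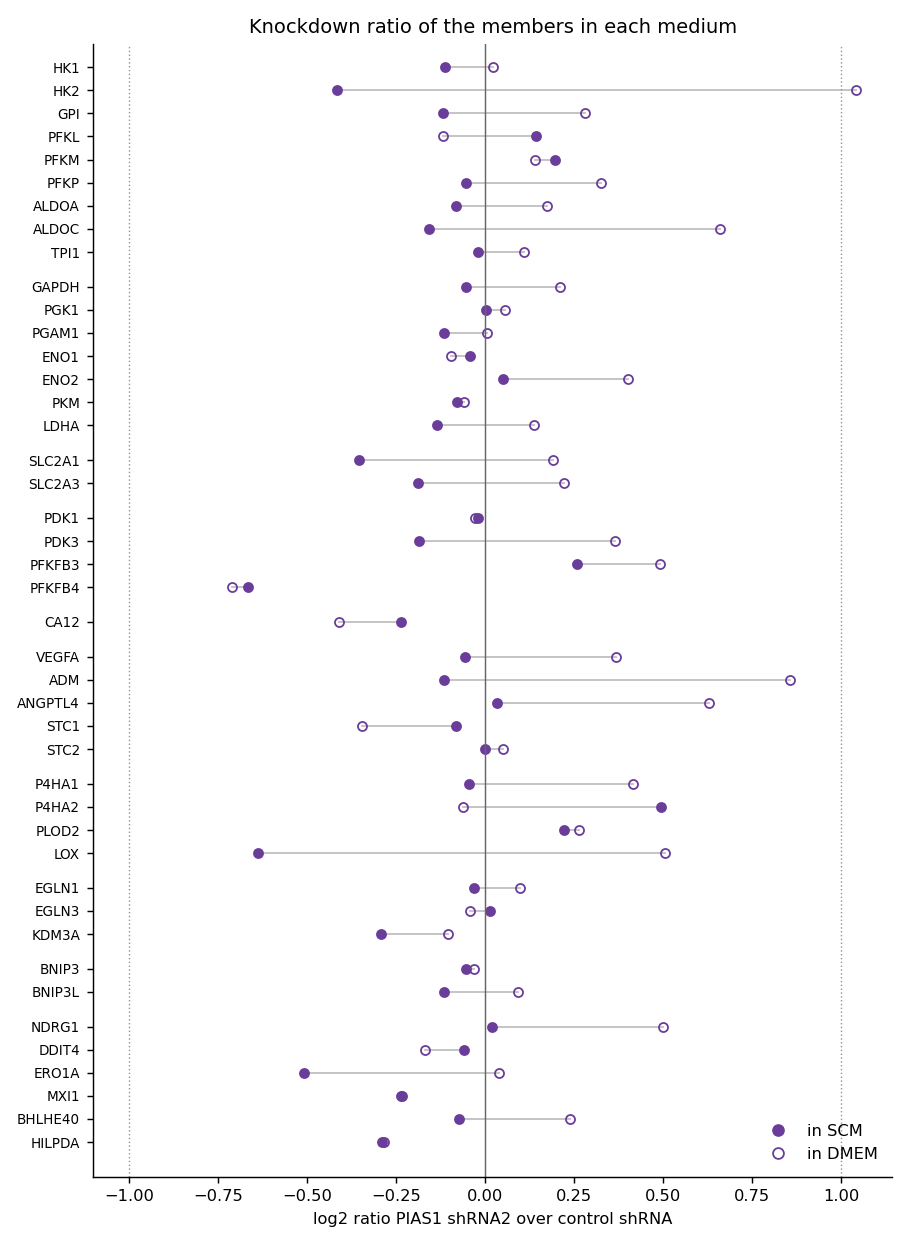
Knockdown ratio (PIAS1 shRNA2 over control shRNA, log2) of each member, filled circles in SCM and open circles in DMEM, with dotted lines at 2-fold and a line joining the media. HK2 in DMEM, at 1.04, is the point past 2-fold, and PFKFB4 has the lowest ratio in both media, -0.67 in SCM and -0.71 in DMEM.

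Outside the members, the genes of the HIF machinery itself had median ratios under 1.5-fold. Of 17 genes of the HIF system 14 were measured, with a median log2 ratio of SCM over DMEM of 0.06 in PIAS1 shRNA2 cells and 0.32 in control shRNA cells. Over the 12 above the floor on at least 1 array, the medians were 0.10 in PIAS1 shRNA2 cells and 0.39 in control shRNA cells. ARNT, the shared partner subunit, had 1.05 with PIAS1 shRNA2 and 1.15 with control shRNA, and its relative ARNT2 had 1.17 with PIAS1 shRNA2 and 1.12 with control shRNA. HIF1A had log2 ratios of 0.33 with PIAS1 shRNA2 and 0.46 with control shRNA, under 1.5-fold in both. EPAS1, another alpha subunit, had signals of 26017 in SCM and 14152 in DMEM in PIAS1 shRNA2 cells, and 15621 in SCM and 7815 in DMEM in control shRNA cells. EPAS1 was thus 1.84-fold higher in SCM in PIAS1 shRNA2 cells and 1.999-fold, just under 2-fold, in control shRNA cells. Its log2 knockdown ratio (PIAS1 shRNA2 over control shRNA) was 0.74 in SCM and 0.86 in DMEM, so EPAS1 was higher with the knockdown by over 1.5-fold in both media. MTOR, a growth kinase, had SCM signals under the floor and log2 ratios of SCM over DMEM of at most -0.97 with PIAS1 shRNA2 and at most -1.24 with control shRNA. HIF is controlled mostly through its protein, which these arrays do not read.

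HIF targets that are no members also stood higher in SCM. Of 47 such genes 42 were measured, 17 of them at least 2-fold higher in SCM in PIAS1 shRNA2 cells, against 8.1% of all genes, and 18 in control shRNA cells, against 7.79%. In each line 2 were at least 2-fold lower, against 7.82% of all genes in PIAS1 shRNA2 cells and 8.02% in control shRNA cells. Their median log2 ratio was 0.67 in PIAS1 shRNA2 cells and 0.73 in control shRNA cells. The highest in PIAS1 shRNA2 cells was IGFBP3, a binding protein of insulin-like growth factors, with 3.57 with PIAS1 shRNA2 and 3.42 with control shRNA on the log2 scale in SCM over DMEM. TMEM45A, a membrane protein, had 3.10 with PIAS1 shRNA2 and 3.05 with control shRNA, and PLAUR, the urokinase receptor, had 2.70 with PIAS1 shRNA2 and 2.78 with control shRNA. ANG, the ribonuclease angiogenin, had 2.97 with PIAS1 shRNA2 and at least 3.94 with control shRNA, above IGFBP3 in that line. The 2 lower genes were the vasoconstrictor peptide EDN1, with -1.72 with PIAS1 shRNA2 and at most -2.32 with control shRNA, and the transcription factor ETS1, with -1.22 with PIAS1 shRNA2 and -1.10 with control shRNA.

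The other genes of this list past 2-fold were FAM162A with 2.19 with PIAS1 shRNA2 and 2.28 with control shRNA and INSIG2, which restrains cholesterol synthesis, with 1.86 with PIAS1 shRNA2 and 2.12 with control shRNA. PLIN2, which coats lipid droplets, had 1.59 with PIAS1 shRNA2 and 1.94 with control shRNA. The cyclin gene CCNG2 had 1.98 with PIAS1 shRNA2 and 1.64 with control shRNA, and RAB20 had 1.52 with PIAS1 shRNA2 and 1.55 with control shRNA. The ratios of these 5 lay between 1.52 and 2.28 in both lines. ANKZF1 had 1.76 with PIAS1 shRNA2 and 2.04 with control shRNA, and the repressor NFIL3 had 1.58 with PIAS1 shRNA2 and 2.13 with control shRNA. DUSP1, a phosphatase of MAP kinases, had 1.49 with PIAS1 shRNA2 and 2.25 with control shRNA. PPFIA4 had at least 2.02 with PIAS1 shRNA2 and at least 2.31 with control shRNA. The smaller ratios past 2-fold belonged to MUC1, a mucin, with 1.39 with PIAS1 shRNA2 and 1.15 with control shRNA, and PPP1R3C, which targets a phosphatase to glycogen, with 1.14 with PIAS1 shRNA2 and 1.18 with control shRNA. CXCR4, a chemokine receptor, had 1.20 with PIAS1 shRNA2 and at least 1.40 with control shRNA. TGFB3, a growth factor, passed 2-fold in PIAS1 shRNA2 cells alone, with 1.13 with PIAS1 shRNA2 and 0.68 with control shRNA. HMOX1, which degrades heme, with 0.22 with PIAS1 shRNA2 and 1.13 with control shRNA, and KDM4B, a histone demethylase, with 0.88 with PIAS1 shRNA2 and 1.47 with control shRNA, passed in control shRNA cells alone. For the knockdown itself, 2 of the 42 were at least 2-fold higher with PIAS1 shRNA2 than with control shRNA in SCM, against 1.5% of all genes, and 2 in DMEM, against 0.903%, with 0 lower in either. In SCM they were CXCR4, by 1.92 on the log2 scale, and TGFB3, by 1.44. In DMEM they were CXCR4, by at least 2.12, and ADORA2B, an adenosine receptor, by 1.07, while TGFB3 stood just under 2-fold at 0.99 and ADORA2B had 0.55 in SCM.

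The neighbouring routes of carbon had medians near 0. Of 35 genes of pyruvate entry and the TCA cycle 31 were measured, with medians of -0.05 in PIAS1 shRNA2 cells and -0.09 in control shRNA cells. PDK4, a kinase of the same family as PDK1, had log2 ratios of at least 2.75 with PIAS1 shRNA2 and at least 2.85 with control shRNA. PC, pyruvate carboxylase, had 1.66 with PIAS1 shRNA2 and 0.95 with control shRNA, and IDH2, a mitochondrial isocitrate dehydrogenase, had 1.26 with PIAS1 shRNA2 and 1.16 with control shRNA. IDH3A, a subunit of the TCA cycle's isocitrate dehydrogenase, was lower, with -1.12 with PIAS1 shRNA2 and -1.17 with control shRNA. Single genes of this route thus differed in either direction.

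Of 9 pentose phosphate genes 8 were measured, with medians of -0.03 in PIAS1 shRNA2 cells and -0.08 in control shRNA cells. H6PD, which starts the pathway in the endoplasmic reticulum, had 2.14 with PIAS1 shRNA2 and 2.18 with control shRNA, RPIA, the ribose phosphate isomerase, had -0.99 with PIAS1 shRNA2 and -1.30 with control shRNA, and RPE, the ribulose phosphate epimerase, had -0.46 with PIAS1 shRNA2 and -1.03 with control shRNA. Of 35 other genes of glycolysis and glycogen 30 were measured, 20 of them above the floor on at least 1 array, with medians over these 20 of 0.38 in PIAS1 shRNA2 cells and 0.08 in control shRNA cells. Of the 30, 3 were at least 2-fold higher in SCM in PIAS1 shRNA2 cells, against 8.1% of all genes, and 5 in control shRNA cells, against 7.79%, and 2 were lower in each, against 7.82% in PIAS1 shRNA2 cells and 8.02% in control shRNA cells. Only the 20 above the floor could pass 2-fold. Of all genes above the floor on at least 1 array, 10.4% were higher in PIAS1 shRNA2 cells and 9.97% in control shRNA cells. The shares lower were 10% in PIAS1 shRNA2 cells and 10.3% in control shRNA cells. The counts of this list are too small to set apart from those of other genes. SLC2A10, a glucose transporter, had 2.17 with PIAS1 shRNA2 and 2.13 with control shRNA, and GBE1, which branches glycogen, had 1.36 with PIAS1 shRNA2 and 1.28 with control shRNA. TIGAR, which lowers glycolytic flux, had -1.28 with PIAS1 shRNA2 and at most -3.09 with control shRNA. The others passed 2-fold in 1 line. ENO3, the muscle enolase, had at least 1.23 with PIAS1 shRNA2 and 0.37 with control shRNA, and LDHC, the lactate dehydrogenase of testis, had -0.06 with PIAS1 shRNA2 and at least 1.07 with control shRNA. GYS1, the muscle glycogen synthase, had 0.84 with PIAS1 shRNA2 and 1.22 with control shRNA, and BPGM, the bisphosphoglycerate mutase of red cells, had 0.83 with PIAS1 shRNA2 and 1.07 with control shRNA. Of the lower ones, SLC2A6, a hexose transporter, had -0.48 with PIAS1 shRNA2 and -1.49 with control shRNA, and FBP1, which opposes phosphofructokinase, had -1.07 with PIAS1 shRNA2 and -0.44 with control shRNA. GYS1 and BPGM were thus close to the limit in both lines, and the rest differed more between the lines. Between PIAS1 shRNA2 and control shRNA cells, TIGAR was higher with the knockdown by at least 1.95 on the log2 scale in SCM, FBP1 was at -1.24 in SCM, and PFKFB2, a relative of PFKFB3, was at most -1.13 in DMEM.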

How the data were processed

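RNA of MDA-MB231 cells was hybridised to Affymetrix human expression arrays, 1 for each of 4 conditions. The authors deposited linear signal intensities, for which the submitters' notes list MAS5 with neither version nor settings. With the lowest and highest 2% left out, each array averaged 2501 as deposited, so a common scale had been set. The precision is limited by the number of arrays.

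Names came from the platform's gene table, in which 19070 of 22277 probe sets had exactly 1 gene, 1043 several and 2164 none listed. Their Entrez identifiers matched RefSeq for 19058 and updated 0 symbols. The floor was the 75th percentile of 100 probe sets of 59 genes restricted to other tissues, the highest of the 4 arrays being used. Genes were read from their brightest probe set, and called from 2-fold. Signals are given for members past 1.5-fold in any comparison and for GAPDH, PGK1, LDHA, SLC2A1, EGLN1 and VEGFA. Other pathway genes are named from 2-fold, and HIF1A and EPAS1 were added for their role after their values were seen. The members and gene lists were chosen with earlier results of these data known. The steps were tested on simulated data in which bright genes alone were changed, by a fold well past the limit. That test does not cover genes near the floor, folds near the limit or the spread between cultures. Alternatives were other floors, common-median and quantile scaling, other ways to join probe sets and a limit of 1.5-fold. Promoter windows and gene names came from RefSeq on GRCh38.p14. Python 3.11.15, NumPy 2.4.6, pandas 2.3.3 and matplotlib 3.10.9 were used.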

Additional observations from a re-analysis of the deposited data

Results flagged for a closer look

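For 21 of the 43 members PIAS1 shRNA2 cells stood below control shRNA cells in SCM and above them in DMEM, and for 3 the reverse. The share of all genes with this pattern was not computed, so the 21 cannot be set against other genes. The median log2 knockdown ratio of the members, -0.07 in SCM and 0.11 in DMEM, lay within the spread between probe sets in each medium. Ratios within the spread between probe sets were counted too, such as those of TPI1, -0.02 in SCM and 0.11 in DMEM in log2. Of the 21, LOX and HK2 stood furthest from control by the smaller of their 2 log2 ratios. HK2 was 0.749-fold in SCM and 2.06-fold in DMEM, and LOX was 0.642-fold in SCM and 1.42-fold in DMEM. The difference between the 2 knockdown ratios, SCM minus DMEM on the log2 scale, was -1.46 for HK2 and -1.14 for LOX. With 1 array per condition the difference was not tested.

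SLC2A3 shares 2 probe sets with its near-identical copy SLC2A14, and these were left out of the comparisons because the gene table names both genes. Their signals in SCM over those in DMEM were 5.43-fold and 10.7-fold in PIAS1 shRNA2 cells, and 6.29-fold and 11.1-fold in control shRNA cells. Transcripts of the 2 genes cannot be told apart on them.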

How the results depend on the processing

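The median log2 ratio of the members and the number at least 2-fold higher in SCM stayed within the spread between probe sets, or within 1.5 times, under all alternatives in both lines, and 0 of the 66 ratios of single members past 1.5-fold changed direction. Of the 104 other nonzero ratios of members, 17 changed sign in at least 1 alternative, 11 of them between PIAS1 shRNA2 and control shRNA cells. Of the 27 members higher in SCM, 24 in PIAS1 shRNA2 cells and 26 in control shRNA cells passed 2-fold in every alternative. HK2, PFKFB4 and BNIP3 were each lost in 1 setting in PIAS1 shRNA2 cells, and BNIP3 in 1 setting in control shRNA cells. The counts for the knockdown were less stable. In DMEM the number of members at least 2-fold higher with PIAS1 shRNA2 was 2 without a floor, 0 with common-median scaling, 0 with quantile normalization, 0 with the mean of all probe sets of a gene, and 4 at 1.5-fold, and the number lower was 1 at 1.5-fold. In SCM it was 1 higher without a floor and 2 lower at 1.5-fold. Without a floor, 1 member, STC2, was at least 2-fold lower in SCM than in DMEM in control shRNA cells. STC2 was also the 1 member higher with PIAS1 shRNA2 in SCM without a floor. In both cases its 2 signals were under the floor. ANGPTL4 was the member added in DMEM without a floor, with its control shRNA signal under the floor. The cause of the other shifts was not tested. No paired analysis by replicate was possible because each condition has 1 array and the labels carry no replicate numbers. A fit of medium and line without their interaction, which would take the difference between lines as its error, was not run. Signals near the floor, as of PFKFB4, ANGPTL4 and STC2, limit what ratios can show, and no spread between cultures is known.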
